A study of Mus musculus with 24 samples.

Results

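The genes described here are 9 chemokines and 1 chemokine receptor of the mouse lung, chosen by name: Cxcl1, Cxcl2, Cxcl5, Cxcl15, Cxcl17, Ccl2, Ccl20, Ccl9, Cxcl12 and Cxcr4. They are 10 of the 23420 genes listed for each comparison. Of these, 9 were found by symbol, and Cxcl15 was found under Il8, which RefSeq lists as its synonym. Whole left lung lobes were sequenced from Sox9Cre/+; Vangl2f/f mice, from Sox9Cre/+; Ror2f/f mice and from control mice labelled WT, at postnatal day 2 (P2) and day 5 (P5). There were 24 lungs in 8 groups of 3, and each mutant had its own controls at each age. The comparison asks which transcripts differ in lungs from whose epithelium Vangl2 or Ror2, 2 genes of planar cell polarity signalling, was removed. Both ages at which lungs were taken fall in the days when alveoli begin to form.

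Chemokines are small secreted proteins that guide cells, mostly leukocytes, along a gradient. CXC chemokines that carry a Glu-Leu-Arg motif before their first cysteine, the ELR group, attract neutrophils through the receptor Cxcr2, and Cxcl1, Cxcl2 and Cxcl5 are released by epithelium, fibroblasts and macrophages when NF-κB is active. Cxcl15, also called lungkine, is made by the airway and alveolar epithelium of the mouse lung, and Cxcl17 is a chemokine of mucosal surfaces. Ccl2 attracts monocytes, Ccl20 attracts cells that carry Ccr6, and Ccl9 is a myeloid cell chemokine that binds Ccr1. Cxcl12 is made by stromal and endothelial cells and retains and guides cells that carry its receptor Cxcr4.

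Sox9Cre is expressed from the Sox9 locus and acts in the distal lung epithelium. Cells of these lobes in which it was not active keep the floxed gene. Since whole lobes were measured, fewer cells of a type and less RNA per cell cannot be told apart. Vangl2 was below every control in all mutant lungs at P2 (241, 224 and 173 normalized counts against 249, 302 and 281) and at P5 (169.5, 148 and 166 against 369, 314 and 292), with limma adjusted p-values of 0.241 and 0.0604. Ror2 had 479, 349 and 366 normalized counts in the P2 mutants against 451, 581 and 520 in their controls, and 361.5, 440 and 521 against 526, 367.5 and 597 at P5, so these groups overlapped (limma adjusted p = 0.25 and 0.692). Ror2 was at 541, 351 and 272.5 in the Vangl2 P5 mutants against 611, 478 and 487 in controls, with overlap. Vangl2 was at 208.5, 251 and 236 in the Ror2 P2 mutants against 270, 291 and 245 in controls, also with overlap. The controls are titled as Vangl1/2 or Ror2 controls, and the titles were followed for every lung. In the 3 Vangl2 mutants at P5 and the 3 Ror2 mutants at P2, the genotype entry names the other gene. Both genes overlapped controls in the Ror2 P2 mutants, so their counts do not settle which was removed there. Between 16178031 and 21546673 reads fell on genes in 23 lungs. Control replicate 1 of the Ror2 comparison at P5 had 13823693 reads and no read for any gene with over 20 normalized counts in both fellow controls on chromosomes 6, 7, 8, 9 and X, and none on chromosome 5 past 64092919, so its values on these 6 chromosomes were set to missing. The ELR genes, Cxcl17 and Cxcl12 therefore rest on 2 controls there. Mutant replicate 3 of Vangl2 P2, mutant replicate 2 of Ror2 P2 and mutant replicate 3 of Vangl2 P5 stood apart from their fellow lungs. For several members the values are also given without these lungs. By Xist, which is high in female mice, sex was not balanced. At P2, Xist was high in 1 control and 2 mutant lungs of the Vangl2 comparison. At P5, it was high in 3 controls and 2 mutants. In the Ror2 comparison it was high in 1 control and 1 mutant at P2 and in 1 of the 2 controls with a value and 0 mutants at P5. Its part in the results was not tested.

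The 4 ELR genes lie side by side on chromosome 5 at 90759298-90905938 (mm10, a stretch of 146.6 kb), in the order Cxcl5, Cxcl15, Cxcl1, Cxcl2. Cxcl17 is on chromosome 7 at 25400053-25412886, Ccl2 and Ccl9 on chromosome 11 at 82035577-82037452 and 83572917-83578636, Ccl20 and Cxcr4 on chromosome 1 at 83116766-83119167 and 128588199-128592299, and Cxcl12 on chromosome 6 at 117168535-117181368. The RefSeq promoters (GRCm38.p6, the mm10 assembly) held 7 of the members. Cxcl5, Cxcl17 and Ccl2 had no entry. The 250 bases before each gene start were searched on both strands for GGAATTTCC, a κB-type sequence of the kind that NF-κB binds, and for the looser GGNNTTTCC, which includes it. GGAATTTCC was found in Cxcl1, 70 bases before the start, and in Cxcl2, 96 bases before it, against 0.286% of all 32851 promoter windows (94 windows). GGNNTTTCC was found at 2 places each in Cxcl1 and Cxcl2 and at 1 place each in Ccl20 and Ccl9, against 4.93% of all windows, and was not among the letters of the windows of Cxcl15, Cxcl12 and Cxcr4. The 150 bases before the start are shown for Cxcl1 and Cxcl2, which hold the stricter sequence, for Ccl20 and Ccl9, which hold the looser one, and for Cxcl15, the neighbour in the same cluster without either. Capitals mark the matches to GGNNTTTCC on either strand, and a match describes letters, not a bound site.
Cxcl1, chr5:90891095-90891244, + strand: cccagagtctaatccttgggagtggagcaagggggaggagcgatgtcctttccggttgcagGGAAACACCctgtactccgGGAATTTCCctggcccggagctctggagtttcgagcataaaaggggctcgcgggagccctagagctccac
Cxcl2, chr5:90903749-90903898, + strand: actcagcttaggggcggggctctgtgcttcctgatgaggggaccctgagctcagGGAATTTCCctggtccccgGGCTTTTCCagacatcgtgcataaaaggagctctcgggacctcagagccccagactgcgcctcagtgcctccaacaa
Ccl20, chr1:83116616-83116765, + strand: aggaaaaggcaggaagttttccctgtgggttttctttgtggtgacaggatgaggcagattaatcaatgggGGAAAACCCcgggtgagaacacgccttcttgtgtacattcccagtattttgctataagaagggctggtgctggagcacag
Ccl9, chr11:83578637-83578786, - strand: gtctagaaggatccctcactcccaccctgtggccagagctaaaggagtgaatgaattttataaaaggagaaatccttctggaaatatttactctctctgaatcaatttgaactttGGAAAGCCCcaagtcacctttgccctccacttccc
Cxcl15, chr5:90794384-90794533, + strand: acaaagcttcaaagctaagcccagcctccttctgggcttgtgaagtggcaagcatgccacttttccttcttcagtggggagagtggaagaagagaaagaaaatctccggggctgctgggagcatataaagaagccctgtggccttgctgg

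Levels between genes were compared as normalized counts per kilobase of exon in control lungs. Normalized counts are reads on a gene divided by the size factor of the lung. Cxcl15 was first in all 4 comparisons, with means of 10289, 9369, 9223 and 6214 per kilobase in the controls of Vangl2 P2, Vangl2 P5, Ror2 P2 and Ror2 P5, and its lowest control was above the highest control of every other member. Cxcl12 (788 to 1025 per kilobase) and Cxcr4 (476 to 999) came next and overlapped each other in both Vangl2 comparisons, and Cxcr4 overlapped Cxcl17 at Ror2 P2. Cxcl17, Ccl9 and Ccl2 lay between 23.6 and 416 per kilobase and changed places between comparisons. Cxcl1 was at 15.2 to 38.2 per kilobase, Cxcl5 at 5.06 to 8.46, Cxcl2 at 2.86 to 15.6 and Ccl20 at 0.67 to 3.87, the lowest of the members in each. The controls of Cxcl5, Cxcl2 and Ccl20 overlapped their neighbours in this order at Vangl2 P5 and at Ror2 P2. The inducible ELR genes were weakly expressed beside their neighbour Cxcl15 in control lobes.

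**Figure D1:**
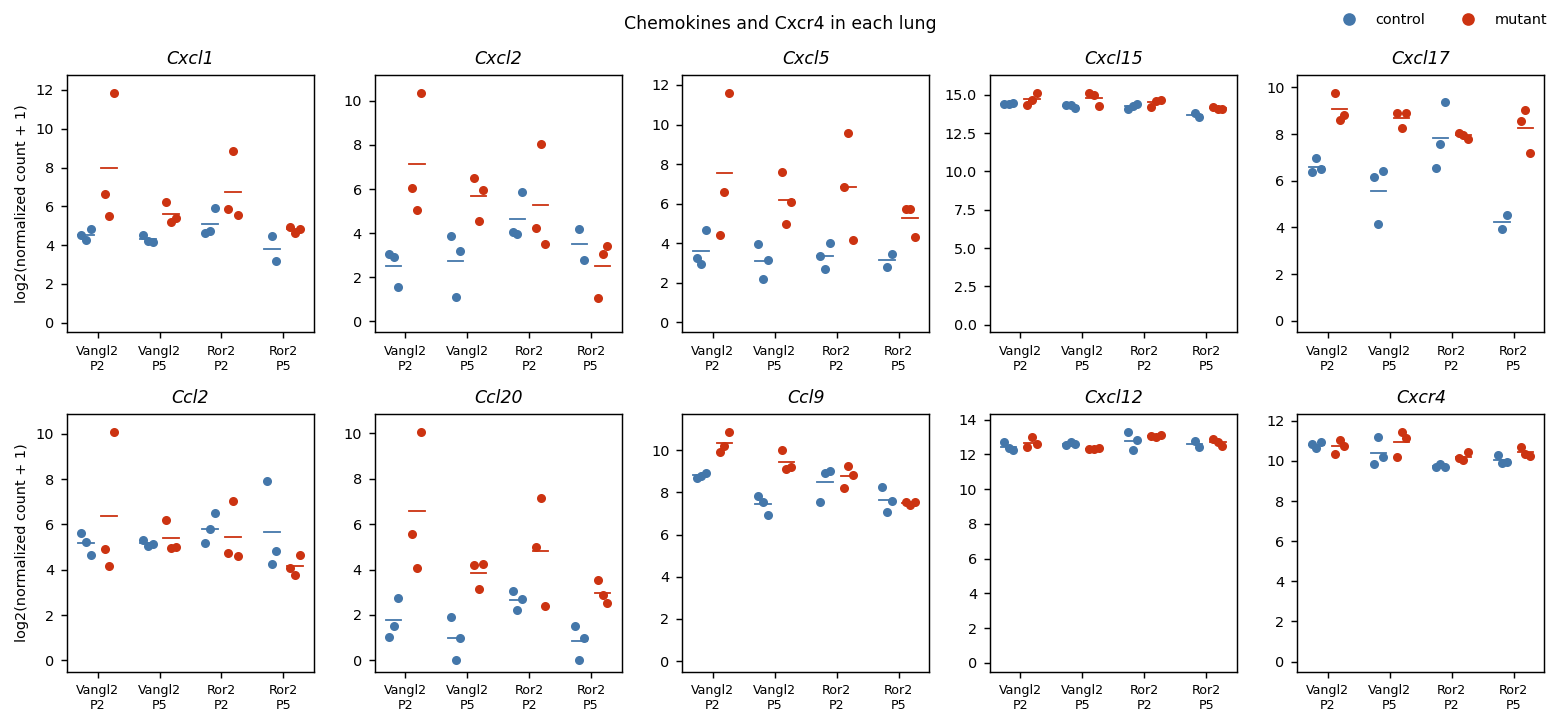
Level of each gene in each lung as log2(normalized count + 1), with controls in blue, mutants in red and a line at the mean of each group of 3 lungs (2 controls at Ror2 P5 for genes on chromosomes 5 to 7). Mutant replicate 3 of Vangl2 P2 is the highest red point for Cxcl1 (3686 normalized counts), Cxcl2, Cxcl5, Ccl2 and Ccl20, while Cxcl15 lies between 12235 and 35481 in all lungs with a value.

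Cxcl17 and Ccl9 rose in Vangl2 mutants at P2, and Ccl9 rose at P5 (limma, p-values adjusted by Benjamini-Hochberg across every tested gene). That is 2 of 10 members at P2, where 3.59% of 17448 tested genes passed, and 1 of 10 at P5, where 0.563% of 17410 passed. With edgeR on the recovered reads, the same 2 members passed at P2 (3.67% of genes) and none at P5 (0.396%), where Ccl9 had an adjusted p of 0.0501. At Vangl2 P5 the replicate numbers were taken to pair the lungs because same-numbered lungs correlated in these data. The labels state no pairing. A fit blocked on that number called 5 members (Ccl20, Ccl9, Cxcl17, Cxcl2 and Cxcl5), against 8.95% of genes. The block was chosen from the values it was then fitted to, so p-values with the block can be too low. No member passed in the Ror2 comparisons, where 0% of 17541 genes passed at P2 (0% with edgeR, 3380 genes at an unadjusted p under 0.05) and 0.122% of 17179 at P5. All 10 members were tested in each comparison.

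**Figure D2:**
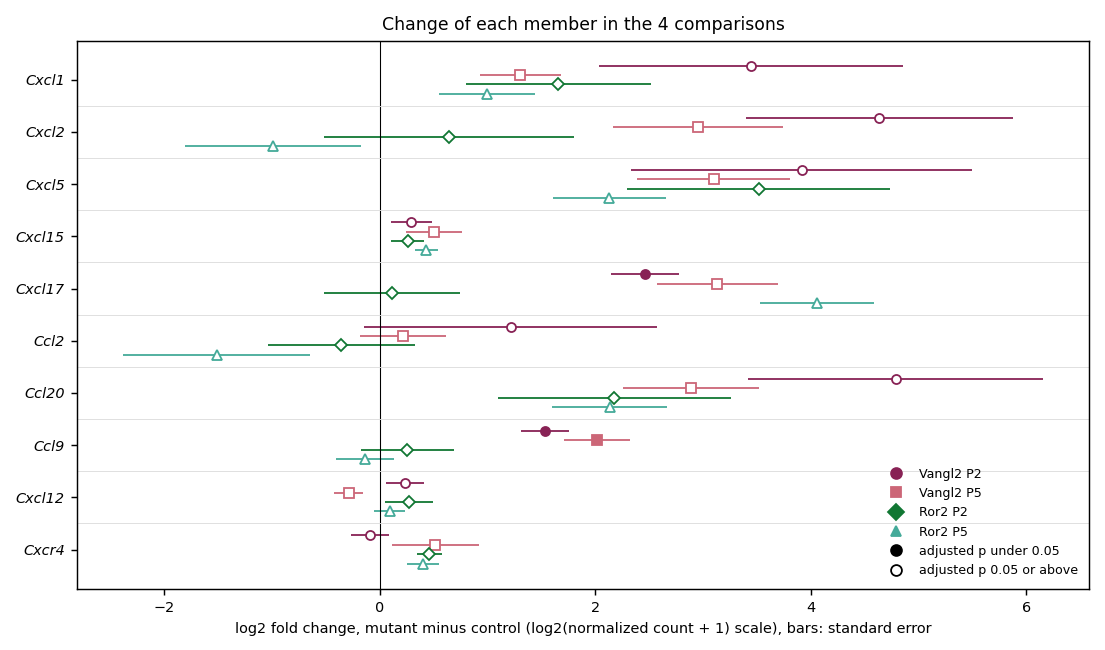
Log2 fold change of each gene, mutant minus control on the log2(normalized count + 1) scale, with its standard error as a bar, in the 4 comparisons. Filled symbols passed an adjusted p of 0.05. Only Cxcl17 at Vangl2 P2 (2.46) and Ccl9 at Vangl2 P2 (1.53) and P5 (2.02) are filled, and the bars of Cxcl1, Cxcl2, Cxcl5, Ccl2 and Ccl20 are widest at Vangl2 P2 (standard errors 1.24 to 1.58).

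A member whose groups did not overlap was described beside the share of all genes of which this held. At Vangl2 P2 every mutant lung was above every control lung for 5 of 10 members (Cxcl1, Cxcl2, Cxcl17, Ccl20 and Ccl9), against 14.6% of all genes. At Vangl2 P5 this held for 6 of 10 (those and Cxcl5), against 13.2%, and 1 member, Cxcl12, was below in every mutant, against 12.5%. At Ror2 P2 it held for 2 of 10 (Cxcl5 and Cxcr4), against 13.4%. At Ror2 P5 it held for 4 of the 6 members with 2 controls (Cxcl1, Cxcl5, Cxcl15 and Cxcl17), against 19.3% of such genes, and for 1 of the 4 with 3 controls (Ccl20), against 13.7%. These values describe lungs, and the exact permutation test can give no p below 0.1 for 3 against 3 lungs and 0.2 for 3 against 2.

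Of the ELR chemokines, Cxcl1 had 22.1, 18.02 and 27.8 normalized counts in the P2 controls and 97.2, 44.3 and 3686 in the Vangl2 mutants. All mutants were above the controls, but 1 of them was 37.9 times the next lung, and the log2 fold change was 3.45 (standard error, SE, 1.41, limma adjusted p = 0.203). Without that lung, mutant replicate 3, it was 1.52 (adjusted p = 0.0541). At P5 the controls had 21.9, 17.6 and 17.1 and the mutants 74.2, 35.8 and 41.1, again with no overlap, a log2 fold change of 1.31 (SE 0.37, adjusted p = 0.133; 0.0531 with the block).

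Cxcl2 had 7.37, 6.64 and 1.92 normalized counts in the Vangl2 controls at P2 and 64.1, 32.5 and 1315 in the mutants (log2 fold change 4.64, SE 1.24, limma adjusted p = 0.0842). It was called without mutant replicate 3 (3.03, limma adjusted p = 0.0225). With any other lung left out it did not pass (limma adjusted p between 0.0966 and 0.247). At P5 it had 13.7, 1.18 and 8.06 in controls and 90.7, 22.4 and 61.7 in mutants (log2 fold change 2.95, SE 0.79, adjusted p = 0.12; 0.0123 with the block). The groups were apart at both ages. In the Ror2 comparisons they overlapped. At P2 the mutants had 18.03, 259 and 10.5 against 15.5, 14.7 and 56.8 in controls. At P5 the mutants had 1.06, 7.31 and 9.54 against 17.1 and 5.95 in 2 controls. The log2 fold changes were 0.64 and -0.99 (limma adjusted p = 0.778 and 0.539). Without mutant replicate 2 the P2 value was -0.74.

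Cxcl5, like Cxcl1, had every mutant above every control in 3 of the 4 comparisons. At Vangl2 P2 the groups overlapped, with 8.43, 6.64 and 24.9 normalized counts in controls and 20.7, 94.4 and 3096 in mutants (log2 fold change 3.92, SE 1.58, limma adjusted p = 0.197; 1.88 without mutant replicate 3, adjusted p = 0.138). At Vangl2 P5 they did not, with 14.6, 3.53 and 8.06 against 191, 30.2 and 66.1 (3.10, SE 0.71, adjusted p = 0.0945; 0.00937 with the block). At Ror2 P2 the controls had 9.28, 5.51 and 14.9 and the mutants 115, 771 and 16.8 (3.52, SE 1.22, adjusted p = 0.216; 2.15 without mutant replicate 2, adjusted p = 0.155). At Ror2 P5 there were 6.03 and 9.92 in 2 controls and 51.8, 52.2 and 19.1 in mutants (2.13, SE 0.53, adjusted p = 0.145). With mutant replicate 1, 2 or 3 left out there, it was 1.90, 1.89 and 2.60 (limma adjusted p = 0.198, 0.458 and 0.0361). Only the last passed, and replicate 3 was the lowest mutant. Cxcl1 at Ror2 P2 overlapped (23.7, 25.7 and 59.6 against 57.5, 456 and 46.2, log2 fold change 1.66, adjusted p = 0.323; 0.62 without mutant replicate 2), and at Ror2 P5 it had 21.1 and 7.94 in controls and 29.6, 24.0 and 27.7 in mutants (adjusted p = 0.293).

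Cxcl15, the most abundant member, had log2 fold changes of 0.26 to 0.51, below those of its neighbours at both ages of the Vangl2 comparison. It had 21902, 21476 and 22279 normalized counts in the Vangl2 P2 controls and 20558, 26472 and 35481 in the mutants. The log2 fold change was 0.29 (SE 0.19, limma adjusted p = 0.403) and 0.09 without mutant replicate 3. At Vangl2 P5 it had 20668, 20912 and 18201 against 34950, 32433 and 19980.3 (0.51, SE 0.26, adjusted p = 0.34). At Ror2 P5 all mutants (18904, 17111 and 17476) were above both controls (14197 and 12235), a log2 fold change of 0.43 (SE 0.11, adjusted p = 0.145). At Ror2 P2 the groups overlapped, with 17167, 20000.4 and 21682 in controls and 19315, 25348 and 26216 in mutants (0.26, SE 0.15, adjusted p = 0.365).

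Cxcl17 rose 5.83-fold in Vangl2 mutants at P2. It had 81.1, 124 and 89.1 normalized counts in controls and 874, 390 and 452 in mutants, that is 98.1 ± 22.95 against 572 ± 263 (SD, n = 3), a log2 fold change of 2.46 (SE 0.32, limma adjusted p = 0.0265; exact permutation p = 0.1). The groups were far apart at P5 as well, with 70.3, 16.5 and 83.6 in controls and 483, 302 and 485 in mutants, but the adjusted p was 0.0604 (log2 fold change 3.14, SE 0.56; adjusted p = 0.00854 with the block). With 1 lung left out, the P2 value stayed between 2.11 and 2.69, but its adjusted p was 0.0513, 0.135 and 0.138 without control replicates 1, 2 and 3 and 0.0626 without mutant replicate 2. At Ror2 P5 Cxcl17 had the largest log2 fold change of any member in that comparison (4.06, SE 0.53, limma adjusted p = 0.0686). It had 14.1 and 21.8 in 2 controls and 377, 526 and 146 in mutants. With mutant replicate 1, 2 or 3 left out, its limma adjusted p was 0.066, 0.322 and 0.0106, and replicate 3 was the lowest mutant. At Ror2 P2 the mutants had 267, 252 and 224 and the controls 91.8, 192 and 665, with the highest value in a control (0.12, adjusted p = 0.931). The same control, replicate 3, had the highest Muc5b of its table (4502 normalized counts) and the highest summed neutrophil markers.

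Club cell transcripts were above controls in the comparisons where Cxcl17 was. Scgb3a1, a secretoglobin of large airway club cells, had 752, 958 and 33.4 normalized counts in the Ror2 P5 mutants and 26.1, 2.01 and 24.8 in their controls (log2 fold change 4.51, limma adjusted p = 0.174). At Vangl2 P5 it had 171.5, 50.5 and 2490.1 in controls and 14542, 7238 and 20418 in mutants (5.52, adjusted p = 0.0882; 0.0111 with the block). Of the 8 club cell markers, 7 were above in every mutant at Vangl2 P2, 8 at Vangl2 P5, 0 at Ror2 P2 and 6 of the 7 tested at Ror2 P5, against 14.6%, 13.2% and 13.4% of all genes and, for genes with 3 and 2 controls at Ror2 P5, 13.7% and 19.3%. None passed the test with all lungs. The block called 6 of 8 at Vangl2 P5 (8.95% of all genes). At Vangl2 P2 without mutant replicate 3, 2 of 8 were called, Bpifa1 and Cyp2f2 (13.2%), and at Ror2 P2 without mutant replicate 2, 1 of 8, Cyp2f2 (4.84%). At Ror2 P2 Scgb3a1 had 34.0, 10596 and 13839 in controls and 222, 351 and 179 in mutants, with the high values in 2 controls. Their part in the Cxcl17 values was not tested.

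Among the CC chemokines, Ccl9 rose 3.0-fold in Vangl2 mutants at P2 and 4.1-fold at P5. At P2 it had 412, 442 and 483 normalized counts in controls and 968.5, 1192 and 1849 in mutants (446 ± 35.6 against 1336 ± 458, SD, n = 3; log2 fold change 1.53, SE 0.22, limma adjusted p = 0.0289). At P5 it had 224, 186 and 120 in controls and 1021, 556 and 593 in mutants (177 ± 52.8 against 723.5 ± 258; log2 fold change 2.02, SE 0.30, adjusted p = 0.0381; 0.00592 with the block; exact permutation p = 0.1 at either age). With 1 lung left out the log2 fold change was 1.27 to 1.74 at P2 and 1.74 to 2.21 at P5, but its adjusted p at P5 was between 0.0586 and 0.139 without each of the 6 lungs. At P2 it was 0.0631, 0.167 and 0.138 without control replicates 1, 2 and 3 and 0.0784 without mutant replicate 2. Ccl9 in Ror2 mutants overlapped the controls at both ages. At P2 it had 187, 483 and 519.8 in controls and 292, 617 and 447.5 in mutants (0.26, SE 0.43, adjusted p = 0.758; 0.0026 without mutant replicate 2), and at P5 300.3, 132.5 and 194.5 against 187, 166 and 188.0 (-0.14, SE 0.27, adjusted p = 0.813).

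Ccl20 was close to the limit of detection in controls. At Vangl2 P2 it had 1.05, 1.90 and 5.75 normalized counts in controls and 46.5, 15.7 and 1063 in mutants (log2 fold change 4.79, SE 1.37, limma adjusted p = 0.0977). Without mutant replicate 3 it was 3.04 and was called (limma adjusted p = 0.034). With any other lung left out Ccl20 did not pass (limma adjusted p between 0.0932 and 0.287). At Vangl2 P5 the controls held 3, 0 and 1 reads and the mutants 19, 7 and 20, that is 4 against 46, a ratio per unit of depth of 10.9 (exact 95% interval 3.98 to 41.7, for counting error only). The fitted log2 fold change was 2.89 (SE 0.63, adjusted p = 0.0881; 0.0246 with the block), a value that depends on the pseudocount at such low reads. At Ror2 P5 the controls held 2, 0 and 1 reads and the mutants 10, 6 and 5, that is 3 against 21, a ratio of 7.29 (interval 2.18 to 38.2), and every mutant was above every control (adjusted p = 0.137). At Ror2 P2 the groups overlapped, with 7.22, 3.68 and 5.59 in controls and 30.4, 142 and 4.20 in mutants (2.18, adjusted p = 0.308; 1.01 without mutant replicate 2).

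Mutants and controls overlapped for Ccl2 in all 4 comparisons, and single lungs carried its high values. At Vangl2 P2 it had 48.4, 36.0 and 23.9 normalized counts in controls and 28.9, 16.7 and 1078 in mutants, and the log2 fold change of 1.22 (SE 1.36, limma adjusted p = 0.634) became -0.63 without mutant replicate 3. At Vangl2 P5 it had 39.2, 31.7 and 34.3 against 71.5, 30.2 and 31.3 (0.22, adjusted p = 0.814). At Ror2 P2 it had 35.1, 54.2 and 88.5 against 25.9, 130 and 23.1 (-0.36, adjusted p = 0.791; -1.14 without mutant replicate 2). At Ror2 P5 a control, replicate 1, was the high lung with 238 against 18.1 and 27.8 in its fellow controls and 15.9, 12.5 and 23.9 in mutants (-1.51, adjusted p = 0.38; -0.39 without it).

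Cxcl12 and its receptor Cxcr4 had log2 fold changes between -0.29 and 0.52, and none passed. Cxcl12 had 5909, 6790 and 6117 normalized counts in the Vangl2 P5 controls and 5038, 5074 and 5294 in the mutants, every mutant below every control, with a log2 fold change of -0.29 (SE 0.13, limma adjusted p = 0.292). In the same mutants endothelial markers summed to 76917, 52637 and 49123 normalized counts, against 88745, 89028 and 80369.5 in controls, with 4 of 10 below every control. Of the mesenchymal markers 6 of 9 were below every control, against 12.5% of all genes, and none of either list passed (Kdr and Pdgfra fell with the block). Their part in the Cxcl12 value was not tested. The Cxcl12 log2 fold changes were 0.23 at Vangl2 P2, 0.27 at Ror2 P2 and 0.09 at Ror2 P5 (adjusted p = 0.461, 0.508 and 0.752), with overlapping groups. Its controls had 6782, 5340 and 4804 at Vangl2 P2, 9889.6, 4978 and 7149.6 at Ror2 P2 and 6978.5 and 5573 at Ror2 P5, and its mutants 5591, 8089 and 6260.4, then 8444, 8289 and 8905, then 7594, 6718 and 5782. Cxcr4 in Ror2 mutants had 1110, 1067 and 1401 against 835, 919 and 824 at P2 (0.46, SE 0.12, adjusted p = 0.203; 0.0591 without mutant replicate 2) and 1649, 1318 and 1201 against 1239, 935 and 973 at P5 (0.40, SE 0.15, adjusted p = 0.217). The ratios of means were 1.39 and 1.32, with no overlap at P2 and overlap at P5. Only control replicate 1 (1239), the lung that lacks reads on whole chromosomes, was above a mutant at P5. Without it the P5 log2 fold change was 0.53 (limma adjusted p = 0.201). In Vangl2 comparisons Cxcr4 overlapped at both ages, with 1840.0, 1611 and 1959 in controls and 1317, 2119 and 1732 in mutants at P2 (-0.09, adjusted p = 0.793) and 923, 2366 and 1149.8 against 1187, 2753 and 2264 at P5 (0.52, adjusted p = 0.535). Neither gene was called under any of 13 alternatives in each comparison.

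**Figure D3:**
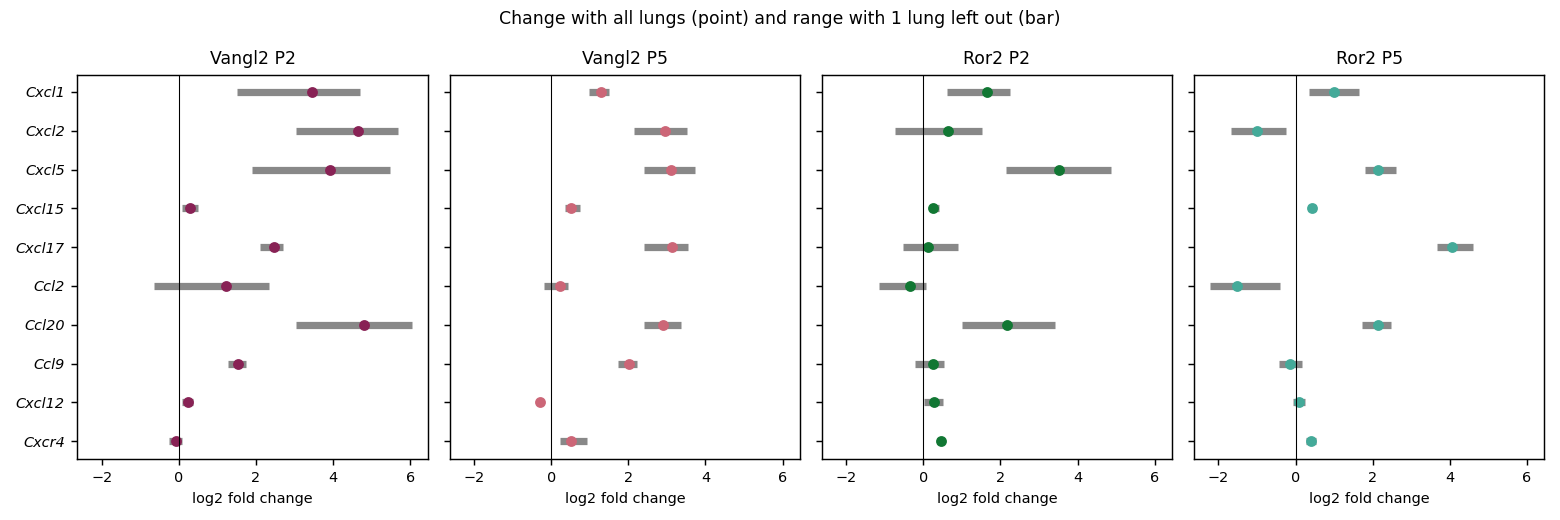
Log2 fold change with all lungs (point) and the range of the value when each lung is left out in turn (grey bar), for each gene and comparison. Bars of Ccl2 at Vangl2 P2 run from -0.63 to 2.33, and those of Cxcl17 and Ccl9 at Vangl2 P2 and P5 stay above 0.

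At P2, the highest inducible chemokines of each comparison were in a single lung. In Vangl2 P2 mutant replicate 3, Cxcl1, Cxcl2, Cxcl5, Ccl2 and Ccl20 stood 20.5 to 37.9 times above the next highest of the 6 lungs. It was the highest lung for 7 of 10 members, against 17.2% of all tested genes. Among inducers chosen after their values were seen, the same lung had 202 normalized counts of Il6 against 3.10 at most in the other 5, 155 of Csf3 against 7.23 and 2151 of Il1b against 234. At Ror2 P2, mutant replicate 2 was highest for 6 of 10 members, against 9.91% of genes, and Cxcl1, Cxcl2, Cxcl5 and Ccl20 stood 4.55 to 7.65 times above the next lung. Lungs counted this way were chosen after their values were seen, so such counts describe them and test nothing. Without Vangl2 P2 mutant replicate 3, 4 of 10 members were called (Ccl20, Ccl9, Cxcl17 and Cxcl2), against 13.2% of genes (2308). Cxcl2 and Ccl20 passed there with no other lung left out. Without Ror2 P5 mutant replicate 3, 2 of 10 were (Cxcl17 and Cxcl5), against 3.85% of genes. Both had their lowest mutant value in that lung, and no member was called there without mutant replicate 1 or 2. At Vangl2 P5, mutant replicate 3 had a lymphocyte marker sum of 6962 normalized counts, against 670 to 1478 in the other 5 lungs, and 1427 of Ccl25, a chemokine of thymus and gut chosen after its values were seen, against 27.04 to 45.3. Without it Ccl9 had a log2 fold change of 2.13 (adjusted p = 0.126), Cxcl17 one of 3.02 and Cxcl5 one of 3.17. Those of Cxcl1, Cxcl2, Ccl20 and Cxcl15 were 1.41, 2.81, 2.70 and 0.76. By limma 0 of 17410 genes were then called, with 2397 at an unadjusted p under 0.05. Mutant replicate 1 was the highest lung of Vangl2 P5 for 6 of 10 members, against 16.3% of all tested genes. Without it the log2 fold changes of Cxcl1, Cxcl2, Cxcl5, Ccl20 and Cxcl17 were 0.99, 2.53, 2.41, 2.72 and 3.02. Those of Cxcl15 and Ccl2 were 0.36 and -0.18, and that of Ccl9 was 1.74 (limma adjusted p = 0.0735).

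Whether a change differed between ages or between mutants was tested over the 12 lungs of each pair of comparisons. No member passed. The share of genes that passed was 0% for P5 minus P2 in Vangl2 (1441 genes at an unadjusted p under 0.05), 0% in Ror2 (1614), 0% for Vangl2 minus Ror2 at P2 (788) and 0.0118% at P5 (799), where 2 genes passed by limma. For Ccl9 at P5, the Vangl2 change exceeded the Ror2 change by 2.15 on the log2 scale (SE 0.45, unadjusted p = 0.000439, limma adjusted p = 0.322). For Cxcl2 it did so by 3.94 (SE 1.26, adjusted p = 0.87). For Cxcl17 in Ror2 mutants, the P5 change exceeded the P2 change by 3.94 (SE 0.95, unadjusted p = 0.00188, adjusted p = 0.454). The Cxcl5 difference between Vangl2 and Ror2 was 0.97 at P5 (SE 1.01) and 0.40 at P2 (SE 2.28).

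Other ligands of the family were described from a list of 29 further chemokines. In Vangl2 mutants 1 of 22 tested passed at P2 and 2 of 25 at P5, all higher, against 3.59% and 0.563% of all genes, with median log2 fold changes of 0.551 and 1.32 beside 0.00115 and 0.00308 over all genes. At P2 it was Ccl3, a macrophage chemokine, with 17.9, 15.2 and 13.4 normalized counts in controls and 111, 55.1 and 423 in mutants (3.08, SE 0.66, limma adjusted p = 0.0476). At P5 they were Ccl11, the eosinophil chemokine eotaxin, at 78.5, 61.1 and 62.5 against 160, 231 and 246 (1.63, SE 0.25, adjusted p = 0.0416), and Ccl6, a myeloid chemokine close to Ccl9, at 1250, 993 and 989 against 3299, 2212 and 3538 (1.46, SE 0.20, adjusted p = 0.0274). With the block 5 of 25 passed at P5, against 8.95% of all genes, and without mutant replicate 3 Ccl6 had an adjusted p of 0.101 and Ccl11 one of 0.147. At P2 4 of 22 passed without mutant replicate 3, against 13.2% of all genes. In Ror2 mutants none of 23 passed at P2 and none of 24 at P5. Their medians were -0.39 and -0.00346 beside -0.00588 and 0.00418 over all genes. The lowest p belonged to Cxcl9 at P2 (-2.69, adjusted p = 0.203) and to Ppbp, the platelet chemokine, at P5 (-1.50, adjusted p = 0.107). Ccl21a and Ccl26 were listed at 0 in every lung.

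Of the chemokine receptors other than Cxcr4, 1 of 21 tested passed at Vangl2 P2 and 2 of 22 at Vangl2 P5, all higher, against 3.59% and 0.563% of all genes, and none of 22 in either Ror2 comparison. The medians were 0.391, 0.61, -0.273 and 0.121 in that order of comparisons. Cxcr2, the neutrophil receptor of the ELR chemokines, rose at P2 from 187.5, 112 and 169 normalized counts to 336, 406 and 604 (1.51, SE 0.27, limma adjusted p = 0.0328) and at P5 from 94.9, 98.7 and 73.6 to 345, 248.5 and 426 (1.90, SE 0.26, adjusted p = 0.0246). Ccr1, a receptor of Ccl9 and Ccl6, rose at P5 from 132, 150.5 and 118 to 384, 380.5 and 407.5 (1.55, SE 0.18, adjusted p = 0.0148). With the block 4 of 22 passed at P5, against 8.95% of all genes, and without mutant replicate 3 Cxcr2 had a log2 fold change of 1.72 (adjusted p = 0.0944) and Ccr1 one of 1.52 (adjusted p = 0.0796). At P2 without mutant replicate 3, 1 of 21 was called higher (Cxcr2) and 1 lower (Cxcr7), against 13.2% of all genes. In the Ror2 comparisons the lowest p was that of Ackr4 at P2 (0.61, adjusted p = 0.213), and at P5 that of Ccr2 (0.57, adjusted p = 0.192).

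No gene passed in any comparison among 18 partners and downstream proteins of Cxcr4 or among 17 inducers and NF-κB response genes. Of the Cxcr4 partners the lowest p was that of Grk6, a receptor kinase, at Vangl2 P2 (-0.44, limma adjusted p = 0.0967), Ptk2b, an adhesion kinase, at Vangl2 P5 (1.02, adjusted p = 0.142), Mif, a cytokine that also binds Cxcr4, at Ror2 P2 (-0.57, adjusted p = 0.203) and Grk3, a receptor kinase, at Ror2 P5 (0.42, adjusted p = 0.22). Their median was between -0.0541 and 0.0893. At Vangl2 P5 the block called 2 of 18, Ptk2b among them (adjusted p = 0.0355), against 8.95% of all genes, and 4 of 18 were called lower at Vangl2 P2 without mutant replicate 3, against 13.2%. Among the inducers, Nfkbia, the NF-κB inhibitor that NF-κB itself induces, had 1368, 1119 and 1352 normalized counts in the Vangl2 P2 controls and 3927, 1940.3 and 7519 in the mutants (1.60, SE 0.42, adjusted p = 0.0776). Il33, an epithelial alarmin, had 949, 1101 and 1011 against 1595.5, 1888 and 1595.0 at Vangl2 P5 (0.73, SE 0.13, adjusted p = 0.0615), and was among the 6 of 16 inducers called with the block (adjusted p = 0.0133), against 8.95% of all genes. At Vangl2 P2 without mutant replicate 3, 2 of 15 were called, Nfkbia and Tnfaip3, against 13.2%. At Ror2 P5 the lowest p was that of Tnfaip3, an NF-κB inhibitor (-0.55, limma adjusted p = 0.0686). At Ror2 P2 it was that of Csf2, a myeloid growth factor (0.70, limma adjusted p = 0.203). The medians of the inducers were 0.903, 0.693, 0.373 and -0.283 at Vangl2 P2, Vangl2 P5, Ror2 P2 and Ror2 P5.

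The summed markers of neutrophils, and those of macrophages and monocytes, were above every control in all Vangl2 mutants. None of 10 lymphocyte markers passed in any comparison. Of 12 neutrophil markers found, 9 rose at Vangl2 P2 and 4 at Vangl2 P5, and every mutant was above every control for 11 and 10 of them. Of all genes, 3.59% and 0.563% passed and 14.6% and 13.2% were above in every mutant. With the block 10 rose at Vangl2 P5, against 8.95% of all genes. Without mutant replicate 3, 9 were called at P2, against 13.2% of all genes. At P5 without mutant replicate 3, 0 were called, where 0% of all genes were called (Cxcr2 1.72, limma adjusted p = 0.0944). Their summed level was 5715, 4103 and 6240 normalized counts in the P2 controls and 11965, 12896 and 15308 in the mutants, and 5709, 4072 and 4613 against 11964, 18994 and 27175 at P5. At P2 the largest log2 fold changes were those of Mpo, myeloperoxidase (2.97, limma adjusted p = 0.047), and Elane, neutrophil elastase (1.76, adjusted p = 0.33). Retnlg (2.68, limma adjusted p = 0.0202) and Ltf (2.22, adjusted p = 0.0652), both granulocyte genes, had the largest log2 fold changes at P5. At Ror2 P2 the highest sum was in a control (31031 in replicate 3, against 5997 and 8540 in its fellows and 7407 to 9651 in mutants). At Ror2 P5 the sums were 2700.0 and 1976 in 2 controls and 5052, 3311 and 2429.5 in mutants. No neutrophil marker passed in either. Ly6g was not found, and Cxcr2 belongs to this list as well as to the receptors. Macrophage and monocyte markers were above in every mutant for 5 of 10 genes at Vangl2 P2 and 7 of 10 at Vangl2 P5 (14.6% and 13.2% of all genes) without a call (6 of 10 with the block at P5, against 8.95%, and 3 of 10 at P2 without mutant replicate 3, against 13.2%), led at P5 by Chil3 (3.38, adjusted p = 0.0542) and Marco (1.39, adjusted p = 0.128). Their part in the Ccl9 and ELR values was not tested.

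**Figure D4:**
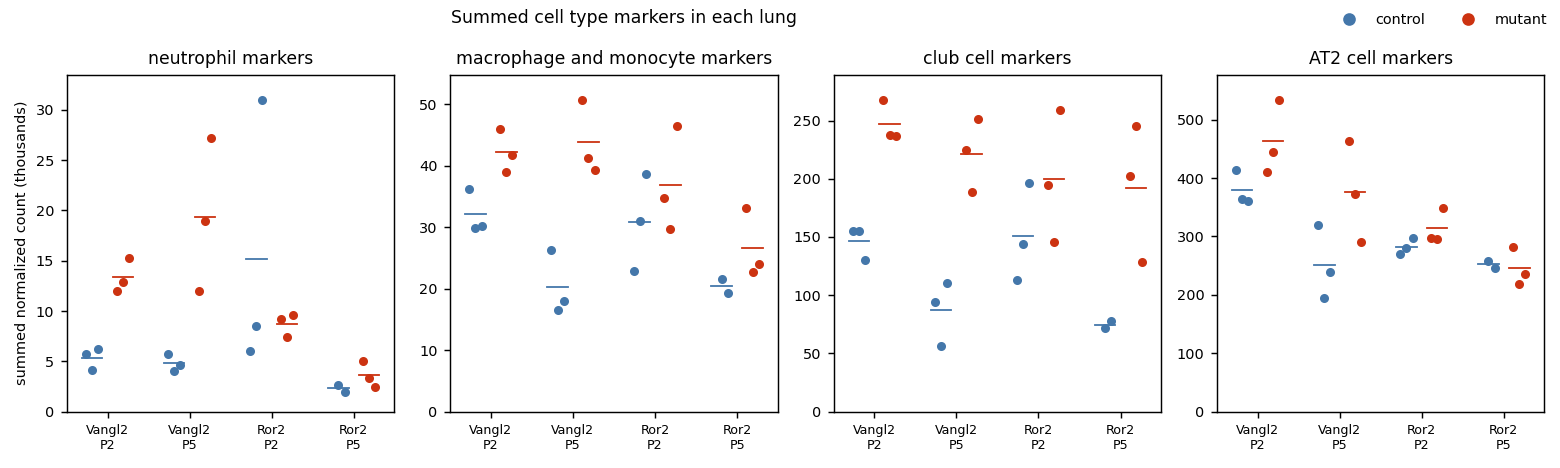
Summed normalized counts, on an axis in units of 1000, of 12 neutrophil, 10 macrophage and monocyte, 8 club cell and 10 alveolar type II (AT2) cell markers in each lung, with controls in blue, mutants in red and a line at the mean. All Vangl2 mutants lie above their controls for neutrophil markers, and 1 Ror2 P2 control stands apart at 31031.

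Markers of the main cell types of a lung lobe were present in all lungs. The AT2 cell markers summed to 194766 to 534382 normalized counts over the lungs with all genes, endothelial markers to 49123 to 93453 and mesenchymal markers to 50745 to 136436. At Vangl2 P2, 3 of 10 AT2 markers rose, with Sftpa1 (1.89, limma adjusted p = 0.0329) and Sftpd (1.55, adjusted p = 0.0248) ahead, and 1 of 8 alveolar type I markers, Hopx (0.75, adjusted p = 0.0436), while 2 of 9 mesenchymal markers fell, Col1a1, a fibroblast collagen, and Myh11, a smooth muscle myosin. At Vangl2 P2 3.59% of all genes passed. At Vangl2 P5 and in both Ror2 comparisons none of these passed. At Ror2 P2 without mutant replicate 2, 3 of 10 AT2 markers (Abca3, Lyz1 and Slc34a2) and 3 of 8 alveolar type I markers (Akap5, Clic5 and Rtkn2) rose, against 4.84% of all genes. With the block at Vangl2 P5, 2 AT2 markers and Hopx rose and 1 mesenchymal marker, Pdgfra, fell, as did 1 endothelial marker, Kdr, against 8.95% of all genes. Of the red cell genes, Hba-a2 and Hbb-b2 were listed at 0 in every lung, and Alas2, the red cell enzyme of haem synthesis, fell at Vangl2 P2 (-1.51, adjusted p = 0.0326).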

How the data were processed

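RNA from left lung lobes was sequenced in 24 lungs, and per the labels the authors deposited 1 table per comparison. The deposited values are signal: read counts scaled by the size factor of the lung, made with DESeq2 on mm10 per the processing notes. The aligner and counter are not given in the sources used here. The 6 columns per table with the authors' comparisons and 27 rows with a date for a name were not used. Values were whole reads times 1 step per lung (100% within 0.02 of a whole read), which gave depth and reads. The test was limma (3.58.1, R 4.3.3) on log2(value + 1), for genes at 1 or more in at least 3 of 6 lungs, with Benjamini-Hochberg adjusted p-values across every tested gene and a threshold of 0.05. edgeR (4.0.16) with quasi-likelihood on the recovered reads was an alternative. The fits were tested on simulated data. Figures used Python (3.11.15) and matplotlib (3.10.9). The p-values measure the spread between lungs, which the labels do not tie to litters.

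The members and gene lists were chosen with earlier results of these data known. Named were all members, the genes of each list that passed (at most 4), otherwise that with the lowest p, and up to 2 genes per cell list by size of change. Replicate numbers were taken to pair lungs where same-numbered deviations from the group means correlated over 0.1 in all 3 pairs. This held for Vangl2 P5 (r = 0.384, 0.34 and 0.241 over 17410 genes).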

Additional observations from a re-analysis of the deposited data

Results flagged for a closer look

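At P5, 2 genes passed the test of the difference between the Vangl2 and Ror2 changes (limma over 12 lungs). Neither is a chemokine, and both were chosen after their values were seen. For Il1rn, the interleukin 1 receptor antagonist, the difference was 2.43 on the log2 scale (standard error 0.26, adjusted p = 0.00896). It had 126, 110.5 and 87.7 normalized counts in Vangl2 controls and 415, 458 and 453 in mutants, and 144, 101 and 115 in Ror2 controls and 96.2, 84.6 and 89.7 in mutants. For Zfp429, a zinc finger gene, the difference was 4.21 (standard error 0.47, adjusted p = 0.00896). It had 97.6, 105 and 97.8 against 116, 189 and 157 in the Vangl2 comparison and 90.5, 48.2 and 68.5 against 7.40, 4.18 and 2.86 in the Ror2 comparison. The cause was not tested.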

How the results depend on the processing

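Of 516 values of the members under the alternatives, 476 kept their direction and side of the threshold, 9 passed only there, 15 no longer passed and 16 turned their direction, all of them values that had not passed. The causes were not tested. With the replicate number as a block, 1558 genes and 5 members were called at Vangl2 P5 (98 and 1 without it), where the numbers met the correlation rule for pairing. Elsewhere they did not (correlations from -0.00999 to 0.0895 at Vangl2 P2, 0.0346 to 0.206 at Ror2 P2 and -0.0867 to 0.0409 at Ror2 P5), and the block called 1 gene at Ror2 P2 (Inmt) and 1 at Ror2 P5 (Retnla), gave Ccl20 an adjusted p of 0.0424 at Vangl2 P2 by limma and turned Cxcl12 at Ror2 P5 to -0.0008576. edgeR called 0 members at Vangl2 P5 (Ccl9 adjusted p = 0.0501) and turned Cxcl17 to -0.35 and Ccl2 to 0.01718 at Ror2 P2. It was not run at Ror2 P5, where control replicate 1 lacks reads on whole chromosomes. Keeping that lung as deposited left 1 gene called (Gabrd) and turned Cxcl2 to 0.17. Quantile normalization turned Ccl2 at Vangl2 P5 to -0.13. The filter at 10 removed Ccl20 in 3 comparisons and Cxcl2 at Ror2 P5.

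With 1 lung left out, the genes called ranged from 1 to 2308 at Vangl2 P2, 0 to 53 at Vangl2 P5, 0 to 849 at Ror2 P2 and 0 to 661 at Ror2 P5, and the members called from 0 to 4, 0 to 0, 0 to 0 and 0 to 2. The single gene at Vangl2 P2, without control replicate 2 or 3, was Pigr, and the high counts came without mutant replicate 3, 2 and 3 at Vangl2 P2, Ror2 P2 and Ror2 P5. The genes whose change differed between Vangl2 and Ror2 at P5 ranged from 0 to 4. Log2 fold changes that turned ranged from -0.25 to 0.09188 for Cxcr4 and -0.63 to 2.33 for Ccl2 at Vangl2 P2, from -0.18 to 0.43 for Ccl2 at Vangl2 P5, from -0.53 to 0.89 for Cxcl17 (-0.003469 without control replicate 2), -0.21 to 0.54 for Ccl9, -0.74 to 1.51 for Cxcl2 and -1.14 to 0.07692 for Ccl2 at Ror2 P2, and from -0.42 to 0.16 for Ccl9 and -0.06807 to 0.26 for Cxcl12 at Ror2 P5. The counts of the gene lists were also taken without the lungs that stood apart, which was chosen after seeing the data. Few reads limit Ccl20 (0 to 7 per control lung), Cxcl2 and Cxcl5.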
